A study of Mus musculus with 6 samples.

Results

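The genes described here encode the working parts of the lysosome: 35 named genes, with the cathepsins left out. They were taken from the 46095 rows of the count table by symbol, and were chosen with earlier results of these data known. They comprise 18 hydrolases, 3 soluble cofactors of the lysosome lumen, 7 membrane proteins, 4 subunits or accessory proteins of the proton pump, and 3 transcription factors of the TFEB family. All 35 symbols matched a row, and all 35 passed the filter on low counts that left 13215 genes for testing.

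The cells were bone marrow-derived macrophages (BMDM) of C57BL/6 mice aged 56 days, either wild type (WT) or Cd226-/-, that is, lacking the gene of the activating adhesion receptor CD226 (DNAM-1). Both genotypes received the same culture: 7 days of M-CSF at 20 ng/ml, which drives marrow cells to become macrophages, and then 24 h of IFN-γ at 20 ng/ml with LPS at 100 ng/ml, so every library comes from stimulated cells and the design holds no unstimulated control. There were 3 RNA-seq libraries per genotype. Whether these were separate mice or cultures is not given in the sources used here, so p-values reflect no more than the variation among these 6 libraries, and part of it may be technical.

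The lysosome is the acidic compartment in which macrophages digest what they engulf and what autophagy delivers. Its hydrolases each remove one kind of bond and work at low pH, which the vacuolar proton pump (V-ATPase) maintains, while heavily glycosylated membrane proteins line and protect the organelle. TFEB, TFE3 and MITF are related transcription factors that bind a short element with an E-box core, known as the CLEAR element, in the promoters of many lysosomal genes, and the kinase complex mTORC1 keeps TFEB and TFE3 out of the nucleus when nutrients are plentiful.

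The CLEAR-type match is shown because it links the regulators to their known class of targets among these genes. The RefSeq promoter table (GRCm38.p6, 250 bases before to 50 bases after each start) held 31 of the 35 genes; Npc1, Atp6v0d2, Atp6v1h and Asah1 are not in it. The 8 letters GTCACGTG, read on both strands, occurred in a promoter of 9 of these 31 genes (29.0%) and of 2.55% of the 27025 genes in the table (2.25% of its 32851 promoters). The 27025 include genes that were not tested here, while all 31 were tested. Among tested genes with a promoter in the table, 453 had the match and 9064 did not, a larger share than 2.55%. The shorter E-box core CACGTG, which lies within the longer match, occurred for 10 of 31 genes (32.3%, Gaa being the tenth) and for 8.09% of all genes in the table (7.15% of promoters). A match is a description of letters and not a measured binding site. The Lgmn match lies in a promoter whose last bases were not found in the GENCODE M21 transcripts of the gene. Its other promoter, whose last bases were found there, holds no match. The 10 matches in 9 genes follow, 5′ to 3′ on the strand of the gene, with the match in capitals:
Gla (chrX:134601182-134601213, reverse strand): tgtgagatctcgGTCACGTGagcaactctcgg
Glb1 (chr9:114401016-114401047, forward strand): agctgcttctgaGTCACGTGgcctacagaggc
Arsa (chr15:89477423-89477454, reverse strand): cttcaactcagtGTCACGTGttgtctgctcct
Naglu (chr11:101070007-101070038, forward strand): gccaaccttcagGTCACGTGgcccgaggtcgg
Sgsh (chr11:119355520-119355551, reverse strand): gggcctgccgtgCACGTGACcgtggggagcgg
Lgmn (chr12:102439124-102439155, reverse strand): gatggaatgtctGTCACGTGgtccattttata
Lamp1 (chr8:13159121-13159152, forward strand): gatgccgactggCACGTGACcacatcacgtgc
Mcoln1 (chr8:3500434-3500465, forward strand): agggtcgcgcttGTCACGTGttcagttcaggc
Mcoln1 (chr8:3500462-3500493, forward strand): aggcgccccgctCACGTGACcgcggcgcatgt
Atp6v0d1 (chr8:105566050-105566081, reverse strand): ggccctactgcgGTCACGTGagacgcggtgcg

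Mcoln1, the gene of the lysosomal calcium channel TRPML1, was the one member with 2 matches, the first starting 73 bases and the second 45 bases before the start site. In Atp6v0d1, which encodes a stalk subunit of the proton pump, the match spans the start site. Of the 9 genes with the match, 0 were called higher and 2 lower in Cd226-/- (Glb1 and Sgsh), with a median log2 fold change of -0.043. Of the 22 genes without it, 6 were called higher and 8 lower, with a median of -0.048. Over all tested genes with a promoter in the table, 12.8% of the 453 genes with the match were higher and 16.3% lower, against 15.6% and 15.5% of the 9064 without it. A gene was called where edgeR's quasi-likelihood F-test over the 13215 genes gave a Benjamini-Hochberg adjusted p below 0.05, and a log2 fold change is Cd226-/- minus WT.

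Total counts were 16838527 to 21658061 per library, and the genes described here took 2.32% to 2.49% of them. Reads of Cd226 itself were scarce, with 5, 17 and 23 in the WT libraries against 11, 10 and 8 in the Cd226-/- libraries, too few to check the genotype labels (adjusted p = 0.480, edgeR). The 8 macrophage markers were all detected, summing to 17932 to 19895 CPM in WT and 19212 to 20005 CPM in Cd226-/-, with Lyz2, the lysozyme gene, highest. Of these 8, 4 were called higher and 3 lower. For this and the marker lists that follow, the shares over all tested genes were 16.1% higher and 14.8% lower. CPM are counts scaled to a common library size and composition, so that they can be set side by side between libraries. Cd226-/- replicate 1 differed more from replicates 2 and 3 (chi-square over degrees of freedom 7.61 and 7.76) than these did from each other (2.17). The 6 hepatocyte markers, none of them tested, summed to 20.7 and 20.8 CPM in replicates 2 and 3, to 0.165 CPM in replicate 1 and to at most 0.136 CPM in WT. Cd226-/- replicate 1 had the highest of the 3 Cd226-/- values for 23 of the 35 lysosomal genes. The B-cell list was called higher for 6 of its 7 genes, all 6 that were tested (17.2 to 20.0 CPM in WT, 41.5 to 52.4 CPM in Cd226-/-, Cd22 highest, Ighm at 0), and 4 of 6 fibroblast genes, 5 of them tested, were higher (494 to 574 CPM in WT, 761 to 793 CPM in Cd226-/-, Col3a1 highest, none at 0). Of 7 dendritic cell genes, 4 of them tested, 1 was higher (41.7 to 57.8 CPM in WT, 66.6 to 76.4 CPM in Cd226-/-, Ccr7 highest, none at 0), and of 6 mast cell and basophil genes, 5 of them tested, 2 were higher (42.2 to 48.3 CPM in WT, 48.9 to 54.1 CPM in Cd226-/-, Cma1 highest, Mcpt8 at 0). Only 2 of 8 neutrophil genes passed the filter for testing, and neither was called (49.3 to 62.7 CPM in WT, 57.8 to 64.7 CPM in Cd226-/-, S100a8 highest, none at 0). Of 6 T and NK cell genes 3 were tested and none was called (2.86 to 4.07 CPM in WT, 3.30 to 4.63 CPM in Cd226-/-, Cd3g highest, Trbc2 at 0). The part of these other cells in the lysosomal values was not tested, and in bulk RNA fewer cells of a type and less RNA per cell cannot be told apart.

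The lysosomal genes did not move as one. Hydrolases of sugar chains and of neutral lipids were mostly lower in Cd226-/- macrophages, led by Lipa, Sgsh and Arsb. Called higher were the hydrolase genes Ppt1 and Tpp1, the cofactor genes Npc2 and Grn, the tetraspanin gene Cd63, the pump subunit gene Atp6v0d2 and Mitf. Npc2, Grn and Mitf were not called without WT replicate 1, nor Tpp1 without WT replicate 3. Most of the pump and Tfeb itself were not called. Of the 35 genes 7 rose and 11 fell. Over all tested genes 30.9% were called, 16.1% higher and 14.8% lower, so 20.0% higher among the lysosomal genes is near the background and 31.4% lower is above it. Among the 8772 tested genes at least as abundant as the lowest member the shares were 18.4% and 18.6%. The median log2 fold change was -0.043 for the lysosomal genes and -0.004 for all tested genes. The 3 values of each genotype did not overlap for 7 genes that were higher and 12 that were lower in Cd226-/-, where 22.1% and 22.3% of all tested genes (44.3% together) had no such overlap.

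Most of these differences were small. Only Lipa, Sgsh, Arsb and Atp6v0d2, 4 of the 35 (11.4%), were called with a change of at least 1.5-fold, against 9.88% of all tested genes. The number that rose depends on single libraries and on scaling: it was 4 without WT replicate 1, and 4 with 14 falling under scaling by total count, where 1773 of all genes were higher and 2764 lower in place of 2130 and 1956. With Cd226-/- represented by replicate 1 alone, which leaves out the libraries that held hepatocyte transcripts, 8 rose and 9 fell, and 14 of the 18 genes called with all libraries were among them; the spread then comes from WT alone.

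**Figure D1:**
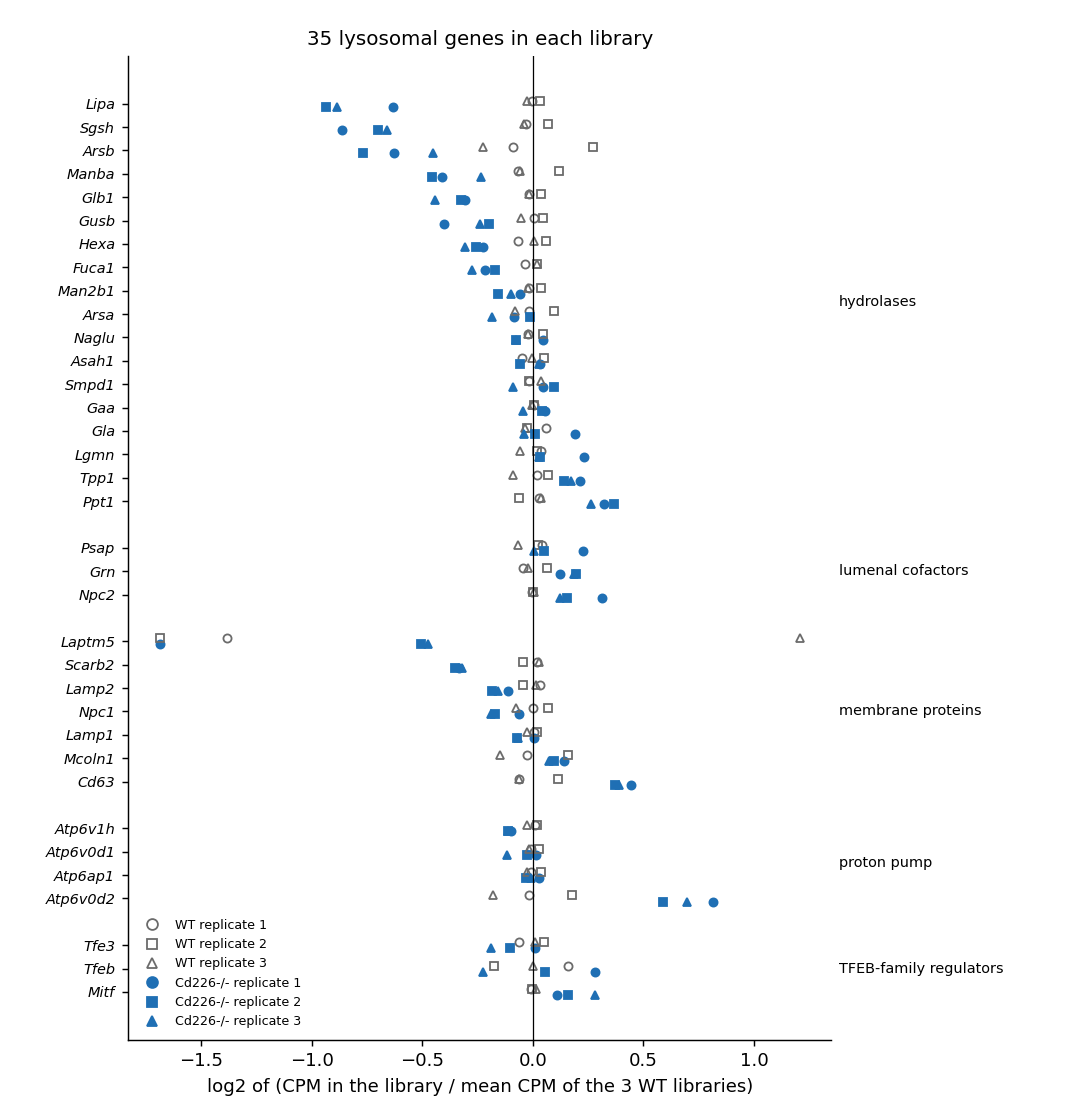
Each of the 35 lysosomal genes in each library, as the log2 of its CPM over the mean CPM of the 3 WT libraries (horizontal axis), grouped by role and ordered by fold change. Open grey symbols are WT and filled blue symbols Cd226-/-, with 1 symbol shape per replicate number; the blue symbols of Lipa and Sgsh lie left of all grey ones, those of Cd63 and Atp6v0d2 right of them, and Laptm5 is spread by WT replicate 3.

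Levels per kilobase differed widely among the members. The scale is CPM divided by the length of the gene's longest GENCODE M21 transcript, coding or not. Another choice of transcript could change the order of the genes. On this scale Psap stood first with 4101 CPM per kb in WT and 4382 in Cd226-/-, followed in both genotypes by Lamp1, Npc2, Grn and Lgmn. Psap alone held 44.8% to 49.2% of the counts of the 35 genes. The lowest level was that of Arsb, with 2.25 CPM per kb in WT and 1.48 in Cd226-/-. Tfeb was also low (5.60 and 5.80 CPM per kb), under its relatives Mitf (18.2 and 20.7) and Tfe3 (16.8 and 15.8). Lipa moved from the eighth to the ninth place in this order, Gusb from 11 to 16 and Scarb2 from 12 to 17, while Ppt1 moved from 16 to 11 and Cd63 from 18 to 15. Replicates were close: leaving out Laptm5, the coefficient of variation of CPM within a genotype had a median of 3.51% in WT and 4.67% in Cd226-/-.

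The largest fall among the hydrolases was that of Lipa, lysosomal acid lipase, which frees cholesterol and fatty acids from the esters of engulfed lipoproteins (chromosome 19, 34492318 to 34527474, GRCm38). It had 895, 919.8 and 882 CPM in WT replicates 1 to 3 and 579.9, 470.3 and 486 CPM in Cd226-/- replicates 1 to 3, the order used for all values that follow. The genotypes were well apart, and Cd226-/- replicate 1 was the least reduced. The mean went from 899 ± 19.3 to 512 ± 59.2 CPM (SD, n = 3), a log2 fold change of -0.81 ± 0.065 (SE, edgeR adjusted p = 4.45e-08), or 0.570 times the WT level. Without Lipa the other 17 hydrolases summed to 3271 to 3399 CPM in WT and 3139 to 3338 CPM in Cd226-/-, ranges that overlap. With it, the 18 summed to 4153 to 4319 CPM in WT and 3626 to 3918 CPM in Cd226-/-. Set against Psap in the same library, Lipa reached 8.0, 8.30 and 8.47 per 100 Psap counts for WT, against 4.55, 4.17 and 4.45 for Cd226-/-. This ratio restates the fall of Lipa against a gene that was not called, and adds no support.

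Of the 18 hydrolases 2 rose and 8 fell, beside 16.1% and 14.8% of all tested genes, with a median log2 fold change of -0.10. The number that rose was 1 without WT replicate 3 and 4 when replicate 1 alone stood for Cd226-/-. Of the other 17 genes 5 rose and 3 fell, with a median of -0.004. The grouping of the hydrolases by substrate that follows was made after their values were seen.

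Enzymes that break down glycosaminoglycans, the long sulfated sugar chains of proteoglycans, fell in 3 of 4 cases. Sgsh, the sulfamidase that acts on heparan sulfate (chromosome 11, 119343425 to 119355536), had 27.2, 29.2 and 27.1 CPM in WT and 15.3, 17.1 and 17.6 CPM in Cd226-/-, with no overlap (log2 fold change -0.74 ± 0.090 (SE), adjusted p = 1.65e-06). Its relative in the same pathway, Naglu, did not differ beyond its spread, with 107, 112 and 107 CPM in WT and 112, 103 and 103 CPM in Cd226-/- (log2 fold change -0.033 ± 0.054 (SE), adjusted p = 0.682). Arsb, arylsulfatase B, which removes sulfate from dermatan sulfate, was the least abundant member: 8.55, 11 and 7.78 CPM in WT and 5.90, 5.34 and 6.65 CPM in Cd226-/-. All 3 Cd226-/- values lay below WT (log2 fold change -0.60 ± 0.16 (SE), adjusted p = 0.00598), but the call was lost without WT replicate 2 (-0.45, adjusted p = 0.0537). Gusb, beta-glucuronidase, had 252, 259.5 and 242 CPM in WT and 189.8, 219 and 213 CPM in Cd226-/- (log2 fold change -0.28 ± 0.055 (SE), adjusted p = 5.43e-04). Exons of 2 non-coding genes on the other strand cover 39.9% of the Arsb exons and those of Card14 21.6% of the Sgsh exons; Card14 had 4 counts in all libraries together, and without a known strand setting such reads cannot be told apart.

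Among the 3 exoglycosidases that trim glycoproteins, 2 fell. Manba, beta-mannosidase, had 38, 43.2 and 38.2 CPM in WT and 29.9, 29.0 and 33.8 CPM in Cd226-/- (log2 fold change -0.36 ± 0.080 (SE), adjusted p = 0.00141). Fuca1, alpha-fucosidase, had 107, 111 and 111 CPM in WT and 94.5, 97.5 and 90.5 CPM in Cd226-/- (log2 fold change -0.22 ± 0.053 (SE), adjusted p = 0.00281). In both genes every Cd226-/- library was below every WT library. Man2b1, the major alpha-mannosidase, also had no overlap, with 330.3, 343 and 329 CPM in WT and 321, 299 and 312 CPM in Cd226-/-, but did not pass the test (log2 fold change -0.10, adjusted p = 0.106).

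The 6 enzymes of sphingolipid and glycolipid breakdown were divided between 2 that fell and 4 that were not called. Glb1, the beta-galactosidase that removes the terminal galactose of GM1 ganglioside, had 192, 199 and 192 CPM in WT and 157, 155 and 143 CPM in Cd226-/- (log2 fold change -0.36 ± 0.051 (SE), adjusted p = 1.26e-05). Tmppe, a gene on the same strand that shares 5.49% of the Glb1 exons, had 26.2% as many counts and was not called. Hexa, the alpha subunit of beta-hexosaminidase A, had 483, 526 and 508 CPM in WT and 432, 423 and 408 CPM in Cd226-/- (log2 fold change -0.26 ± 0.050 (SE), adjusted p = 3.09e-04). Asah1 (acid ceramidase), Smpd1 (acid sphingomyelinase), Gla (alpha-galactosidase A) and Arsa (arylsulfatase A) had log2 fold changes between -0.092 and 0.056 with overlapping values in all 4. Gla had 289 CPM in Cd226-/- replicate 1 and 255 and 246 CPM in replicates 2 and 3, against 247 to 264 CPM in WT.

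Proteases and the palmitate-removing enzyme did not share the fall. Ppt1, the palmitoyl-protein thioesterase, rose, with 195, 183 and 196 CPM in WT and 239, 247 and 229.8 CPM in Cd226-/- (1.25-fold, log2 fold change 0.32 ± 0.050 (SE), adjusted p = 4.14e-05). Exons of Cap1, on the other strand, cover 3.51% of its exons; Cap1 had 278% as many counts and was not called (log2 fold change 0.049), and reads in the shared part cannot be told apart. Tpp1, the tripeptidyl peptidase, had 223, 231 and 207 CPM in WT and 255, 243 and 248 CPM in Cd226-/- (1.13-fold, adjusted p = 0.0111), a call lost without WT replicate 3 (adjusted p = 0.0939) or when scaled by total count (0.0510). Both genes are known from the neuronal ceroid lipofuscinoses, storage diseases of the nervous system. Lgmn, the asparaginyl endopeptidase legumain, reached 687 CPM in Cd226-/- replicate 1 but 597 and 595 CPM in replicates 2 and 3, against 562 to 599.8 CPM in WT, and was not called (adjusted p = 0.192). Gaa, the acid glucosidase of glycogen, was level, with 192, 192 and 191 CPM in WT and 199, 197 and 186 CPM in Cd226-/- (log2 fold change 0.017 ± 0.049 (SE)).

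**Figure D2:**
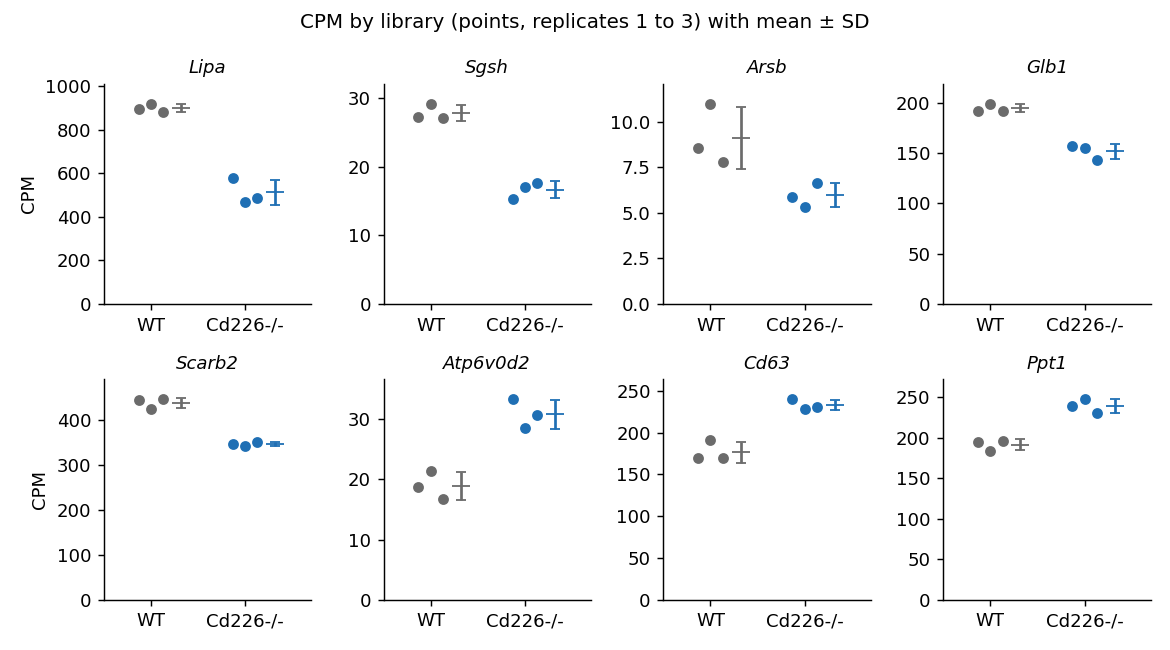
CPM (vertical axes, from 0) of 8 lysosomal genes in the 3 WT libraries (grey) and the 3 Cd226-/- libraries (blue), with points for replicates 1 to 3 from left to right and the mean ± SD beside them. The panels show 5 genes that fell (Lipa, Sgsh, Arsb, Glb1, Scarb2) and 3 that rose (Atp6v0d2, Cd63, Ppt1), and in none of the 8 do the genotypes overlap.

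Of the 3 soluble cofactors of the lumen 2 rose and 0 fell, beside 16.1% and 14.8% of all tested genes. Without WT replicate 1 none was called. Npc2, the carrier that hands cholesterol from the lumen to NPC1, had 2391, 2396 and 2409 CPM in WT and 2979, 2669 and 2611 CPM in Cd226-/- (1.15-fold, adjusted p = 0.00807). The WT libraries were nearly equal and Cd226-/- replicate 1 was highest. The call was lost without WT replicate 1 (adjusted p = 0.0531). Grn, progranulin, whose processed granulins act in the lysosome, had 1096, 1180.2 and 1113 CPM in WT and 1231, 1295 and 1285 CPM in Cd226-/- (1.12-fold, adjusted p = 0.0131). Its call was lost in 5 of the 14 alternatives, with adjusted p of 0.0999 and 0.0634 on dropping WT replicates 1 and 3, and of 0.0664 on dropping Cd226-/- replicate 2. Psap, the precursor of the saposins that present sphingolipids to their hydrolases, had 11194, 11085 and 10409 CPM in WT and 12732, 11279 and 10918 CPM in Cd226-/-. These values overlap, and Psap was not called (log2 fold change 0.096 ± 0.060 (SE), adjusted p = 0.244). Per 100 Lipa counts of the same library Npc2 reached 267, 260 and 273 for WT, against 514, 568 and 537 for Cd226-/-. The ratio restates the rise of Npc2 and the fall of Lipa, so its separation of the genotypes follows from them and adds no support.

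Of the 7 membrane proteins 1 rose and 3 fell, beside 16.1% and 14.8% of all tested genes. Cd63, a tetraspanin of late endosomes and lysosomes, had 169, 191 and 169 CPM in WT and 239.7, 228 and 231 CPM in Cd226-/- (1.32-fold, log2 fold change 0.40 ± 0.054 (SE), adjusted p = 5.75e-06). Scarb2 (LIMP-2), an integral protein of the lysosomal membrane, had 443, 423 and 445 CPM in WT and 347, 342 and 349.5 CPM in Cd226-/- (log2 fold change -0.34 ± 0.047 (SE), adjusted p = 1.09e-05). In both genes the genotypes did not overlap.

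The LAMP glycoproteins coat the inner face of the lysosomal membrane, and 1 of the 2 was called. Lamp1 had 2245, 2268 and 2197 CPM in WT and 2245, 2125 and 2131 CPM in Cd226-/- and was not called (log2 fold change -0.046 ± 0.050 (SE), adjusted p = 0.523). Lamp2, which also serves chaperone-mediated autophagy, had 964, 916 and 952 CPM in WT and 874, 829 and 845 CPM in Cd226-/- (log2 fold change -0.15 ± 0.049 (SE), adjusted p = 0.0204). The Lamp2 call was lost in 5 of the 14 alternatives, with adjusted p of 0.102 and 0.0669 on dropping WT replicates 1 and 3, and of 0.110 and 0.0735 on dropping Cd226-/- replicates 2 and 3. Per 100 Lamp1 counts Cd63 reached 7.53, 8.42 and 7.68 for WT, against 10.7, 10.7 and 10.8 for Cd226-/-, which restates the rise of Cd63.

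Npc1, the membrane protein that exports cholesterol from the lysosome, had 291, 305 and 276 CPM in WT and 278, 258 and 255 CPM in Cd226-/-. The ranges overlap, and the gene was at the threshold (log2 fold change -0.14 ± 0.052 (SE), adjusted p = 0.0467). Its call was lost in 9 of the 14 alternatives, where the adjusted p reached 0.585, and was 0.124 and 0.184 on dropping WT replicates 1 and 2, and 0.160 and 0.189 on dropping Cd226-/- replicates 2 and 3. Mcoln1 had 55.1, 62.5 and 50.6 CPM in WT and 61.8, 59.8 and 59.0 CPM in Cd226-/-, within its spread (adjusted p = 0.268). Laptm5, a lysosomal membrane protein of blood cells, had 15.9, 12.9 and 95.9 CPM in WT and 12.9, 29.3 and 29.9 CPM in Cd226-/-. WT replicate 3 was far above the other 5 libraries, so that the log2 fold change was -0.83 ± 1.00 (SE, adjusted p = 0.598) with all libraries and 0.73 (adjusted p = 0.386) without WT replicate 3.

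The V-ATPase pumps protons through a membrane sector (V0) driven by a cytosolic sector (V1), and its d subunit in V0 exists in a widely used form, d1, and a form best known from osteoclasts, d2. Atp6v0d2 (chromosome 4, 19876841 to 19922605) rose, with 18.7, 21.4 and 16.7 CPM in WT and 33.3, 28.5 and 30.7 CPM in Cd226-/- (1.64-fold, log2 fold change 0.71 ± 0.096 (SE), adjusted p = 6.64e-06). Atp6v0d1 had 184, 189 and 183 CPM in WT and 187, 182 and 171 CPM in Cd226-/- and was not called (log2 fold change -0.043 ± 0.050 (SE), adjusted p = 0.557). Per 100 counts of Atp6v0d1 Atp6v0d2 reached 10.2, 11.3 and 9.13 for WT, against 17.8, 15.7 and 18.0 for Cd226-/-. The d1 form was thus the more abundant in all 6 libraries, and the higher ratio in Cd226-/- restates the rise of Atp6v0d2. Of 10 osteoclast markers (Acp5 is also among the further lumenal enzymes) 8 were tested, of which 3 rose and 1 fell, beside 16.1% and 14.8% of all tested genes, and the sum of the list was 299 to 354 CPM in WT and 379 to 431 CPM in Cd226-/-, with Acp5 highest and Oscar at 0. The part of such cells in the Atp6v0d2 value was not tested. Atp6v1h, the regulatory H subunit of V1, had 127, 128 and 124 CPM in WT and 118, 117 and 117 CPM in Cd226-/-, without overlap but above the threshold (log2 fold change -0.11 ± 0.049 (SE), adjusted p = 0.0906). Atp6ap1, an accessory protein of the pump, was level at 417, 431 and 412 CPM in WT and 428, 410.4 and 418 CPM in Cd226-/- (log2 fold change -0.0040 ± 0.048 (SE)).

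Among the TFEB-family regulators Mitf alone was called. It had 88.4, 88.5 and 89.6 CPM in WT and 95.7, 99.0 and 108 CPM in Cd226-/- (1.14-fold, adjusted p = 0.0150), but the call was lost when WT replicate 1 (adjusted p = 0.0609) or Cd226-/- replicate 3 (0.121) was dropped, when replicate 1 alone stood for Cd226-/- (0.297), and under scaling by total count (0.0820). Tfeb had 14.6, 11.6 and 13.1 CPM in WT and 15.9, 13.6 and 11.2 CPM in Cd226-/-, so its ranges overlap (log2 fold change 0.050 ± 0.13 (SE), adjusted p = 0.803). Tfe3 had 102, 110.2 and 107 CPM in WT and 107, 99.0 and 93.4 CPM in Cd226-/- (log2 fold change -0.092 ± 0.057 (SE), adjusted p = 0.240), and was called lower without Cd226-/- replicate 1 (-0.15, adjusted p = 0.0336) and when scaled by total count (-0.15, adjusted p = 0.0412). Transcript levels do not show where these proteins lie in the cell. Tfec, the fourth member of the family and one expressed in macrophages, fell from 25.8 ± 1.46 to 17 ± 2.35 CPM (SD, n = 3), a log2 fold change of -0.60 ± 0.10 (SE, edgeR adjusted p = 8.53e-05).

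**Figure D3:**
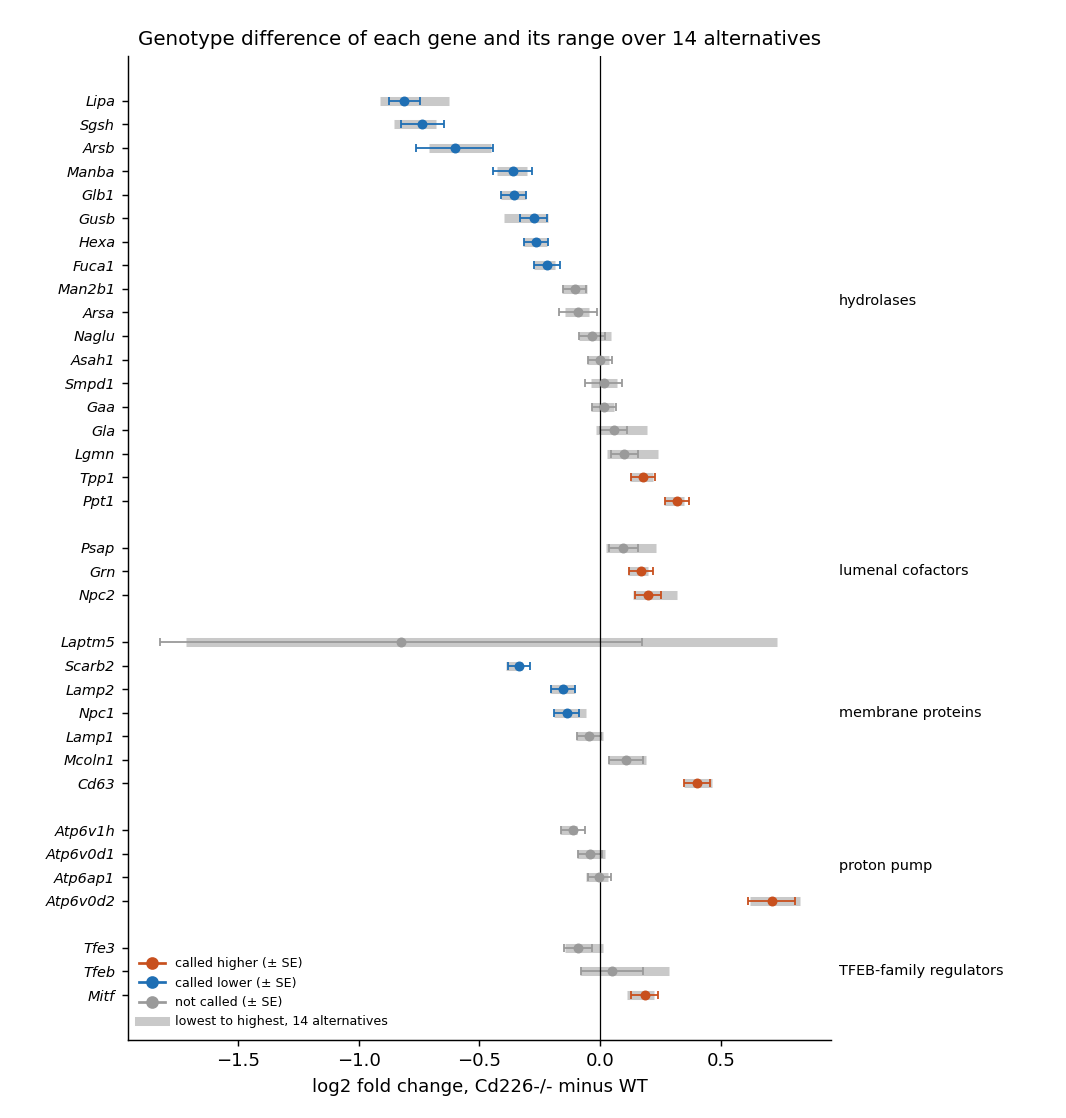
Log2 fold change of each lysosomal gene, Cd226-/- minus WT (horizontal axis), with points and bars for the value ± SE from all 6 libraries and grey bands from the lowest to the highest value over 14 alternative settings. Orange marks the 7 genes called higher and blue the 11 called lower; the bands of Lipa, Sgsh, Scarb2, Cd63 and Atp6v0d2 stay on one side of 0, and that of Laptm5 reaches from -1.72 to 0.73.

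Related lists of lysosomal genes were read in the same fit. The counts of each list stand beside 16.1% higher and 14.8% lower over all tested genes. Of 27 further lumenal enzymes and activators 8 rose and 4 fell (29.6% and 14.8%, median log2 fold change 0.051), against 2 and 8 of the 18 hydrolases above; the difference between the lists was not tested. Plbd1, a phospholipase B-like protein, rose 1.57-fold (173 ± 10.3 to 272 ± 13.6 CPM (SD, n = 3)) and Creg1, a glycoprotein of the endolysosome, fell by 0.50 on the log2 scale. Of 30 tested membrane proteins 6 rose and 5 fell (median 0.009), such as Cd68, the macrophage sialomucin (1.31-fold), Mcoln2, a relative of Mcoln1 (log2 fold change -0.56), and the heme transporter gene Slc48a1 (-0.36). Of 15 further tested V-ATPase subunits 2 rose and 2 fell (median -0.031): Atp6v1f rose 1.20-fold, while Atp6v0a1 and Atp6v1a had log2 fold changes of -0.27 and -0.18.

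Of 16 genes of mannose 6-phosphate tagging and lysosomal sorting 1 rose and 4 fell (median -0.11). Sort1, the sorting receptor sortilin, went from 66.7, 74.9 and 59.7 CPM in WT to 29.9, 33.9 and 41.0 CPM in Cd226-/- (log2 fold change -0.94 ± 0.12 (SE), adjusted p = 2.43e-04). Igf2r, the large mannose 6-phosphate receptor, fell by 0.28 on the log2 scale, and Vps29, of the retromer, rose 1.18-fold. Of 32 autophagy genes 2 rose and 11 fell (6.25% and 34.4%, median -0.052, against 16.1% and 14.8% of all tested genes). Sqstm1, the cargo receptor p62, had 1345, 1319 and 1384 CPM in WT and 1017, 1008 and 972 CPM in Cd226-/- (log2 fold change -0.43 ± 0.049 (SE), adjusted p = 5.35e-07). Gabarapl1, an ATG8 protein of the autophagosome membrane, had the same fall (-0.43, adjusted p = 9.30e-07), and Nbr1, another cargo receptor, fell by 0.29. Without Sqstm1 the other 31 genes summed to 2171 to 2219.7 CPM in WT and 2096 to 2159 CPM in Cd226-/-.

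Of 22 tested genes of mTORC1, Rag-Ragulator and folliculin, a list that also holds Tfec, 3 rose and 4 fell (median -0.10). Eif4ebp1, the translation repressor that mTORC1 phosphorylates, rose 1.56-fold (40.3 ± 2.52 to 63.2 ± 1.64 CPM (SD, n = 3), edgeR adjusted p = 1.07e-07), and Fnip1, a partner of folliculin, 1.23-fold. Of 13 genes of lysosome tethering and positioning 0 rose and 2 fell (median -0.012), namely Vps18 (log2 fold change -0.27) and Arl8a (-0.22).

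**Figure D4:**
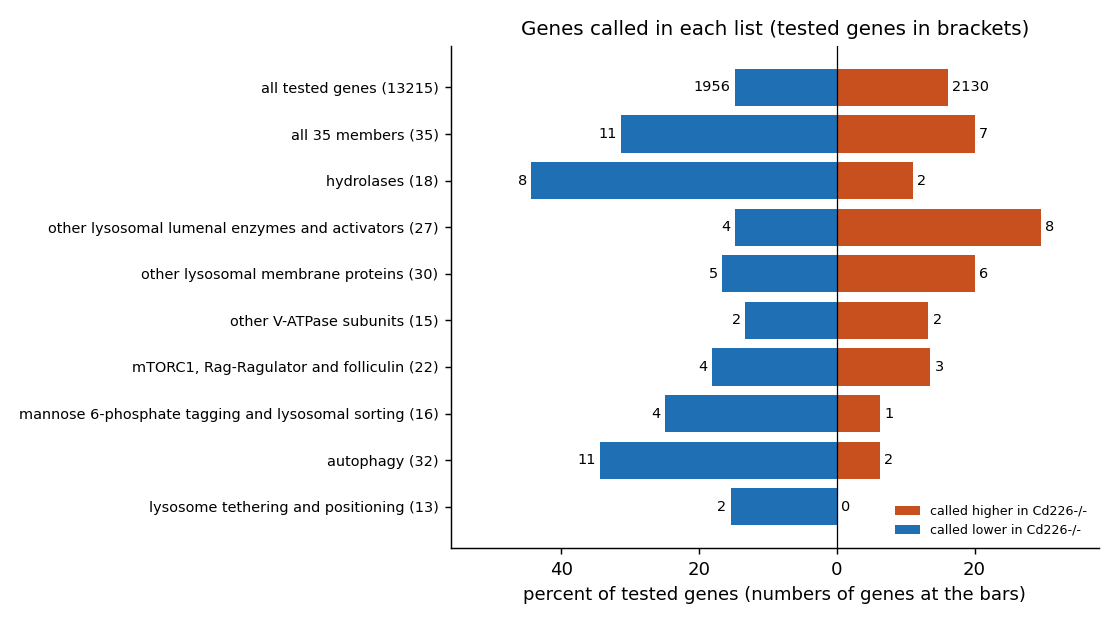
Percent of tested genes called lower (blue, left) and higher (orange, right) in Cd226-/- for all tested genes, the 35 lysosomal genes, the 18 hydrolases among them and 7 related lists, with numbers of genes at the bars and tested genes in brackets. Left bars are longer for the 35 genes, the hydrolases (8 lower of 18) and the autophagy (11 of 32), sorting, mTORC1 and tethering lists. Right bars are longer for all tested genes, the 27 other lumenal enzymes and the other membrane proteins. Those of the other V-ATPase subunits are equal.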

How the data were processed

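RNA-seq of 3 WT and 3 Cd226-/- libraries of stimulated macrophages was read from the table of raw counts per gene that the authors deposited. Reads were aligned with HISAT2 to GRCm38, per the submitters' processing notes; counting tool, strand setting and annotation: not given in the sources used here. The table had 46095 rows, 0 of them without a gene name, and 0 columns of other samples.

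Genes with low counts were removed with filterByExpr, leaving 13215. Libraries were scaled by TMM, and genotypes compared with the quasi-likelihood test of edgeR 4.0.16 (robust, R 4.3.3, no covariates), with Benjamini-Hochberg adjustment over all tested genes and a threshold of 0.05. The biological coefficient of variation was 6.75%. SEs were obtained as |log2 fold change|/√F. Depth was 16838527 to 21658061 counts. No 2 libraries of the same genotype agreed within sampling noise (chi-square over degrees of freedom 2.17 to 7.76), so none was treated as a repeat deposit of another. This does not show that they come from separate mice or cultures. Libraries of different genotypes were not compared in this way. Whether same-numbered libraries belong together is not given in the sources used here. Their deviations showed no shared pattern (correlations -0.014 to 0.018), which cannot show that they were unpaired. Alternatives used DESeq2 1.42.0, limma 3.58.1, other scalings and filters, a replicate block, and left-out libraries.

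The genes and lists were chosen with earlier results of these data known. All 35 lysosomal genes are named whatever their values, of each related list at most the 3 called genes with the smallest p (1 result under this rule is not reported here), and of each marker list its most abundant gene. Promoters are from RefSeq (GRCm38.p6), and gene positions, exon overlaps and transcript lengths from GENCODE M21 (GRCm38).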

Additional observations from a re-analysis of the deposited data

How the results depend on the processing

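Of the 18 genes called with all libraries, 11 were called in all 14 alternatives (Lipa, Ppt1, Glb1, Hexa, Gusb, Manba, Fuca1, Sgsh, Cd63, Scarb2 and Atp6v0d2), and none of the 18 changed sign in any. Scaling by total count alone shifted the median log2 fold change of all genes by -0.053 and gave 4 lysosomal genes higher and 14 lower, and 1 hydrolase higher; 39.1% of all calls were then higher, against 52.1%. Leaving out 1 library at a time gave 4 to 7 lysosomal genes higher and 9 to 13 lower, 1 to 2 hydrolases higher, and 3263 to 4379 genes called in the table. With replicate 1 as the only Cd226-/- library 4 hydrolases were higher. The fit with the replicate number as a block called 4137 genes, with 7 lysosomal genes higher and 11 lower. It changed no call among the 35, and whether the numbers pair the samples is not known. Genes that were not called changed sign as follows. Asah1 had log2 fold changes of 0.003 with DESeq2 size factors and with DESeq2, 0.011 with a minimum mean of 5 CPM, 0.023 without WT replicate 2, 0.029 without Cd226-/- replicate 2 and 0.035 with Cd226-/- replicate 1 alone. By total count Smpd1 had -0.038, Gaa -0.036 and Tfeb -0.005. Without Cd226-/- replicate 1 Gla had -0.017, Gaa -0.002 and Tfeb -0.084, and without Cd226-/- replicate 2 Smpd1 had -0.022. With Cd226-/- replicate 1 alone Naglu had 0.047, Lamp1 0.011, Atp6v0d1 0.022, Tfe3 0.013 and Atp6ap1 0.034. Atp6ap1 had 0.008 with the 5 CPM minimum, 0.013 without WT replicate 2, 0.011 without Cd226-/- replicate 2 and 0.001 without Cd226-/- replicate 3. Without WT replicate 2 Tfeb had -0.028, and without WT replicate 3 Laptm5 had 0.731. Leaving out 1 library at a time, the far ends of these ranges were -0.027 for Asah1, 0.07 for Smpd1, 0.106 for Gla, 0.051 for Gaa, -1.242 for Laptm5, -0.021 for Atp6ap1 and 0.175 for Tfeb. The cause was not tested. Depth limits Arsb most, with 89 counts in its lowest library.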

Other observations

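Laptm5 had 2121 counts in WT replicate 3 and 221 to 549 in the other 5 libraries. Genes with at least 100 counts in 1 library and more than 4-fold above both other libraries of its genotype were few: 1 in WT replicate 1 (Vamp8), 2 in WT replicate 2 (Gstp1 and Spag7), 2 in WT replicate 3 (D17Wsu92e and Laptm5), 0 in Cd226-/- replicate 1, 1 in Cd226-/- replicate 2 (Gstp1) and 1 in Cd226-/- replicate 3 (Cd163). These genes were chosen after their values were seen.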
